A study of Mus musculus with 6 samples.

Results

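The genes described here are 39 interferon-induced and antigen presentation genes out of 55291 symbols in the count files. They were listed by symbol, with earlier results of these data known. They fall into 4 lists: 20 targets of type I interferon, 8 targets of interferon-gamma, 6 genes of class I antigen processing and 5 genes of MHC class II. RNA was sequenced from 6 libraries of sorted mammary cells, 2 libraries for each of 3 groups, all from 6-week-old mice with the genotype Adgra3-lz/+ on an FVBN background. In these mice 1 allele of Adgra3, the gene of the adhesion receptor Gpr125, expresses a fusion of part of the receptor with β-galactosidase, so every group, the Gpr125-negative group included, carries 1 intact allele beside the fusion. All libraries came from cells with high surface CD49f (integrin α6), after cells bearing the blood and endothelial antigens CD45, Ter119 and CD31 had been removed, and each pooled the abdominal glands of 5 mice according to the series record, whereas the study's methods give another number for its cell preparations. The TEB-distal Gpr125+ group held cells with β-galactosidase activity from the distal side of the position of the excised lymph node, where terminal end buds (TEBs), the growing tips of the pubertal ducts, lie. The nipple-proximal Gpr125+ group held such cells from the side nearer the nipple. The Gpr125-negative group held cells without the activity, carries no region in its labels, and served as the reference for both others. The question put to the data was how the level of each gene differed between these groups. Nothing in the labels says that libraries of a group came from separate sorts, so p-values measure the spread between these libraries.

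Interferons are cytokines released on detection of viral or bacterial products. Type I interferons bind the Ifnar1/Ifnar2 receptor and activate a complex with Stat2 and Irf9 among its members that binds the interferon-stimulated response element (ISRE), whereas interferon-gamma binds the Ifngr1/Ifngr2 receptor and acts through the gamma-activated site (GAS). Their targets include antiviral effectors, GTPases that attack intracellular microbes, and the machinery that loads peptides onto MHC class I and class II molecules. Class I is made by nearly all nucleated cells, and class II chiefly by dendritic cells, macrophages and B cells, although epithelial cells can be induced to make it.

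Total counts were between 20134890 and 37296640 per library, and 38 of the 39 genes were among the 17268 that passed the expression filter. Oas2, an enzyme that makes the RNase L activator 2-5A, did not pass, with 5 and 5 counts in Gpr125-negative, 15 and 4 in TEB-distal and 4 and 1 in nipple-proximal libraries. Levels below are CPM (counts scaled by library size), normalized with edgeR's TMM factors, and 3 counts, the smallest level read as present, correspond to 0.0645 to 0.147 CPM, which covers counting error only. Adgra3 went against the labels, with 35.7 and 18.6 CPM in libraries labelled Gpr125-negative, 15.0 and 4.83 in TEB-distal and 19.2 and 12.3 in nipple-proximal libraries, so each direction given against that group is against the libraries labelled Gpr125-negative. The basal cell markers (12 genes, Krt5 and Krt14 among them) summed to between 3393 and 23031 CPM and the luminal markers to between 1453 and 2966 CPM, and both were present in every library. The endothelial markers (12 genes) summed to 1450 and 989 CPM in Gpr125-negative, 21.4 and 25.02 in TEB-distal, and 285 and 33.1 in nipple-proximal libraries. Pecam1, which encodes the CD31 used to remove endothelial cells, stood at 43.4 and 56.2 CPM in Gpr125-negative libraries, at 27.0 in nipple-proximal replicate 1, and between 2.40 and 5.38 in the other 3.

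The promoters of these genes carry the letters of the elements described above more often than promoters at large. The genes were listed as known interferon targets and antigen presentation genes, so this excess describes the list and is not a result of these libraries. RefSeq promoter sequences (GRCm38.p6, from 250 bases before to 50 bases after each start) were at hand for 29 of the 39 genes. The ISRE core GAAANNGAAA, searched on both strands, occurred in 16 of the 29 (55.2%), against 3.99% of 27025 genes with a promoter in the same table. The GAS core TTCNNNGAA, which reads the same on both strands, occurred in 10 of the 29 (34.5%), against 9.55% of those genes. By list, the ISRE letters were found in 10 of 16 type I targets, 5 of 7 interferon-gamma targets, 1 of 4 class I genes and 0 of 2 class II genes, and the GAS letters in 5, 4, 1 and 0 of the same genes. A match describes letters in this window and does not show binding. The promoters below belong to 5 genes described below and to Tap1, whose window held neither core. In all of these genes, Tap1 included, both TEB-distal libraries lay under both nipple-proximal libraries. H2-Aa shared that order and its window also held neither core, but it is not printed. Capitals mark the motif matches, and each sequence runs 5′ to 3′ on the gene's strand.
Irf8 (chr8:120736108-120736407, plus strand, 2 GAS matches, at -171 and -153, counted from the RefSeq start to the first letter of the match): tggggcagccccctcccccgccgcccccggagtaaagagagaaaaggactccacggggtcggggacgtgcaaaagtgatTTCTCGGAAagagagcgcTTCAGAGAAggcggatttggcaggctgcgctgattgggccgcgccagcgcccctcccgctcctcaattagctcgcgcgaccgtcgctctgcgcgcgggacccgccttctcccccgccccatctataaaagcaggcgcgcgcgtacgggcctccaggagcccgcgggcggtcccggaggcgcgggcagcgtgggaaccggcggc
Ifit1 (chr19:34640639-34640938, plus strand, 2 ISRE matches, at -104 and -85): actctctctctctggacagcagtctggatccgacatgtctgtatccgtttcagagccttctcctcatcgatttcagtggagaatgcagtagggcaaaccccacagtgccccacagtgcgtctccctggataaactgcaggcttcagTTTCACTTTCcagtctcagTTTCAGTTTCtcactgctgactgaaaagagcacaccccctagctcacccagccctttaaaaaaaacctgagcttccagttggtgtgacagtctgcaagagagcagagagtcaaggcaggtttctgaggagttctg
Gbp3 (chr3:142559794-142560093, plus strand, 2 overlapping ISRE matches, at -45 and -39): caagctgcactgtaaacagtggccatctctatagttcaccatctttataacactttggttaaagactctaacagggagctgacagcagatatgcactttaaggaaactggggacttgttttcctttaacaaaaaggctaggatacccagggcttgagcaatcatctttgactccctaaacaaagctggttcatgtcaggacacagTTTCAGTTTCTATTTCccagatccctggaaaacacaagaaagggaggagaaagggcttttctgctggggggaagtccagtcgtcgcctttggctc
Gbp7 (chr3:142530086-142530385, plus strand, 2 GAS matches at -106 and -87 and 1 ISRE match at -53): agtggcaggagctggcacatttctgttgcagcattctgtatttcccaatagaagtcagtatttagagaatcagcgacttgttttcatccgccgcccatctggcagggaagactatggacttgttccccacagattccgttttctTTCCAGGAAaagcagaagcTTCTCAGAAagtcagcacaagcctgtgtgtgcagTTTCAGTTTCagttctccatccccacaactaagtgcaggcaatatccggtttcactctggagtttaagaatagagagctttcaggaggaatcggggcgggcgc
Igtp (chr11:58199306-58199605, plus strand, 1 GAS match at -45 followed by 1 ISRE match at -34): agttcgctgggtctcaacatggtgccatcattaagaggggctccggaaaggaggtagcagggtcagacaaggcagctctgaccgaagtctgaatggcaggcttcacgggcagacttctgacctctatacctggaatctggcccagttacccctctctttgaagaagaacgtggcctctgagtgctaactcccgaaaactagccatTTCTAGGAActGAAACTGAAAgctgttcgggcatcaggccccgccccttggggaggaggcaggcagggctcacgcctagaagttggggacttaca
Tap1 (chr17:34187306-34187605, plus strand, 0 matches): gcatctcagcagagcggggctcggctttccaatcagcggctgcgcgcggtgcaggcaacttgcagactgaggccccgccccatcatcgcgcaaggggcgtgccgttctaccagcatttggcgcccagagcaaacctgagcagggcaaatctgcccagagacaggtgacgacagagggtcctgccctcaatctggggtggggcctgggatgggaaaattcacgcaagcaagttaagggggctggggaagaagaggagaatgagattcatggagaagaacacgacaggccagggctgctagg

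The Tap1 window lies head to head with that of Psmb9 on the other strand (chr17:34187281-34187580), so the same bases serve both genes, and Psmb9 likewise had no match. Irf8 and Gbp3 each have 1 further RefSeq promoter, without a match. In Irf8 the matches were of the GAS type only, in Ifit1 and Gbp3 of the ISRE type only, and in Gbp7 and Igtp of both.

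The 39 genes spanned a wide range of levels. Per kilobase of exon, the mean over 6 libraries was highest for B2m, the light chain of every class I molecule, at 681 CPM per kb, followed by the exonuclease Isg20 at 21.98, the class II invariant chain Cd74 at 14.5, the virus tether Bst2 at 13.2 and Ifi35 at 11.9 CPM per kb. At the other end were the RNA sensor Ifih1 at 0.0981 and Oas2 at 0.0465 CPM per kb. Libraries of 1 group were often far apart. Of the 38 genes tested, 16 differed by at least 4-fold between the replicates of the Gpr125-negative group, 8 between those of the TEB-distal and 6 between those of the nipple-proximal group, that is 42.1%, 21.1% and 15.8% of them, against 42.8%, 29.3% and 10% of all genes tested. The 6 in the nipple-proximal group were all higher in replicate 1. That library held the highest level of 13 of the 39 genes and the lowest of none, and Gpr125-negative replicate 2 held the lowest level of 18 and the highest of 8.

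**Figure D1:**
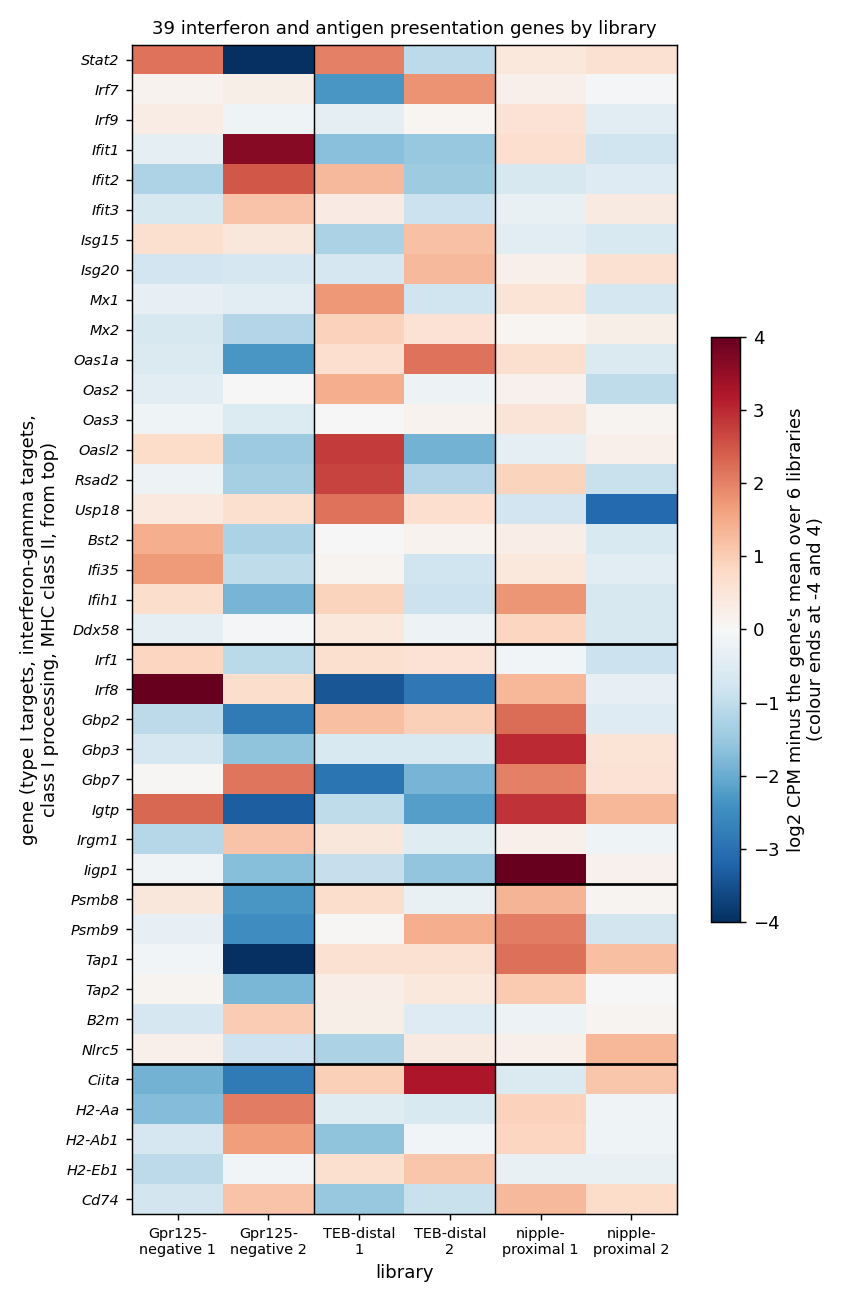
Level of each of the 39 genes (rows, in 4 lists divided by thick lines) in each of the 6 libraries (columns), as log2 CPM minus the gene's mean over the 6 libraries, with the colour scale ending at -4 and 4. The columns of 1 group often differ as much as columns of different groups. Among the interferon-gamma targets, nipple-proximal replicate 1 is darkest red at Iigp1, followed by Gbp3 and Igtp, and is close to white at Irf1 and Irgm1. The TEB-distal libraries are blue at Irf8, Gbp7, Igtp and Iigp1.

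No gene of the 39 was called differentially expressed in any of the 3 comparisons, which share libraries with each other, by edgeR's quasi-likelihood test (2-fold or more, with a Benjamini-Hochberg FDR under 0.1), and neither was any of the 17268 genes tested (0% in each comparison). With 2 libraries against 2, an exact permutation test of a single gene cannot go below p = 0.333. Between TEB-distal and Gpr125-negative cells, 3 of 38 genes had an unadjusted p under 0.05 in edgeR (7.89%, against 6.05% of all genes), and DESeq2 on the 4 libraries called 2 of the 33 to which it gave an FDR (6.06%, against 2.61%). Between nipple-proximal and Gpr125-negative cells the corresponding counts were 1 of 38 (2.63%, against 3.55%) and 0 of 37 (against 1.37%). Between TEB-distal and nipple-proximal cells they were 4 of 38 (10.5%, against 2.21%) and 3 of 37 (8.11%, against 1.85%), and each of these was lower in the TEB-distal libraries.

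Genes whose libraries did not overlap between groups were also counted. In TEB-distal cells 11 of 38 genes lay above both Gpr125-negative libraries (28.9%, against 14% of all genes) and 4 below both (10.5%, against 10%). In nipple-proximal cells 9 lay above (23.7%, against 19.9%) and 2 below (5.26%, against 10.8%). Of the genes compared between the Gpr125+ populations, 5 were higher in both TEB-distal libraries (13.2%, against 15.2%) and 9 lower (23.7%, against 18.3%). The counts of higher genes against Gpr125-negative cells depended on the scaling: with CPM taken from the library total, 7 and not 11 TEB-distal genes (18.4%, against 12.8%) and 5 and not 9 nipple-proximal genes (13.2%, against 15.4%) lay above, and the counts of lower genes stayed at 4 and 2.

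**Figure D2:**
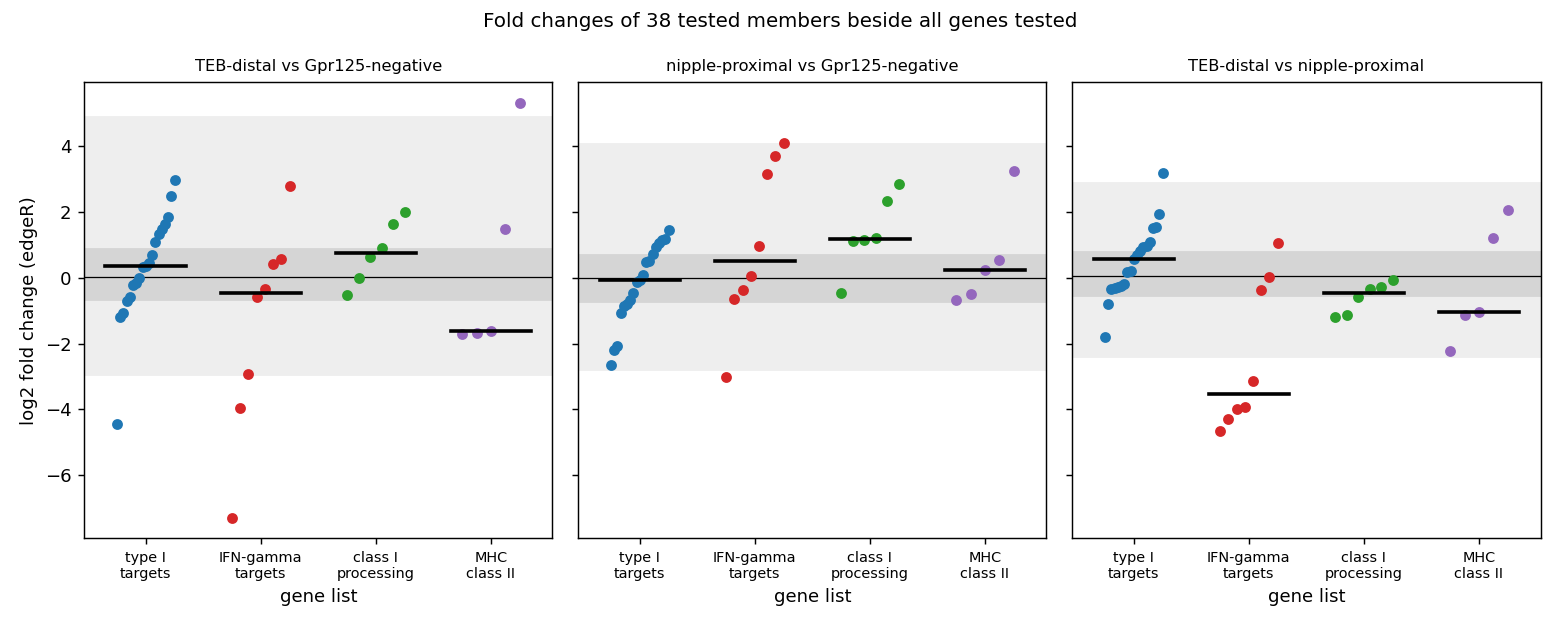
Log2 fold change from edgeR (vertical axis) of each tested gene in its list (points, 38 genes) for the 3 comparisons (panels). Thick bars are list medians, the dark and light bands hold the middle 50% and 90% of all 17268 genes, and the thin line is their median. The interferon-gamma targets have the lowest median of the 4 lists in the TEB-distal versus nipple-proximal panel, where 5 of their 8 points lie under the light band, and the type I targets are spread about the line in each panel.

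Receptors were present in all groups, and most ligand genes had few counts or none. Ifnb1, the gene of interferon-beta, had 0 counts in every library, and Ifng, the gene of interferon-gamma, had 1 count in each Gpr125-negative library and 0 in the other 4. Ifnk had 9 counts in nipple-proximal replicate 2 and 0 elsewhere. Ifne, which encodes the epithelial interferon-epsilon, passed the filter on low values, with 24 and 0 counts in Gpr125-negative, 0 and 60 in TEB-distal and 0 and 4 in nipple-proximal libraries. Its highest level was 2.04 CPM, in TEB-distal replicate 2, and each group held a library at 0. Ifnar1 stood at 27.9 and 24.8 CPM in Gpr125-negative, 52.8 and 48.8 in TEB-distal and 39.9 and 58.7 in nipple-proximal libraries, so that all 4 Gpr125+ libraries lay above both Gpr125-negative libraries, without being called. Ifngr1, a chain of the interferon-gamma receptor, ranged from 14.4 to 80.6 CPM and its groups overlapped. Of 24 ligand, receptor and signalling genes listed, 21 were tested and 0 were called by edgeR in any comparison. The viral RNA receptor Tlr3, lower in TEB-distal than in Gpr125-negative cells, was the only one with an unadjusted p under 0.05, and it was called by DESeq2 on the 4 libraries at an FDR of 0.0720.

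The type I interferon targets showed no shared direction. Their median log2 fold change was 0.37 in TEB-distal cells and -0.069 in nipple-proximal cells against Gpr125-negative cells, and 0.58 between the Gpr125+ populations, beside medians over all genes of 0.027, -0.0032 and 0.059. The direction of these medians turned when 1 library was left out. It became -0.47 without TEB-distal replicate 1 in the first comparison and -0.43 without the same library in the last, and it became 0.83, 0.42 and 0.0026 in the nipple-proximal comparison without Gpr125-negative replicate 1, Gpr125-negative replicate 2 and nipple-proximal replicate 2. Of the 19 tested, 12 were higher and 7 lower in TEB-distal than in Gpr125-negative cells by the sign of the fold change alone.

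Ifit1 (ENSMUSG00000034459, chromosome 19, 34640871 to 34650009, GRCm38), which binds viral RNA lacking 2′-O methylation, had the smallest p among the type I targets. Its level was 1.74 and 29.0 CPM in Gpr125-negative, 0.663 and 0.749 in TEB-distal and 3.63 and 1.27 in nipple-proximal libraries. Gpr125-negative replicate 2 stood far above the other 5 libraries, and the TEB-distal pair lay below all others. Its log2 fold change in TEB-distal against Gpr125-negative cells was -4.44 (SE 1.74, unadjusted p = 0.0351, edgeR FDR 0.803). It was called by DESeq2 on the 4 libraries at an FDR of 0.0897, and ranged from -5.47 to -1.30 as libraries were left out in turn, the smaller size being without Gpr125-negative replicate 2. Ifit2, its neighbour on the chromosome, showed the same library on top with 20.6 CPM, but TEB-distal replicate 1 reached 9.12 against 1.33 in replicate 2, and the other 3 lay between 1.51 and 2.54 CPM. Ifit3 stayed between 0.306 and 1.42 CPM, with its highest level again in Gpr125-negative replicate 2, although reads of Ifit3 may be shared with its close copy Ifit3b.

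Usp18, a protease that removes Isg15 from proteins and dampens signalling at the type I receptor, was the type I target with the smallest p between the Gpr125+ populations. It was measured at 3.89 and 4.61 CPM in Gpr125-negative, 13.5 and 4.70 in TEB-distal and 1.72 and 0.282 in nipple-proximal libraries. Both TEB-distal libraries lay above and both nipple-proximal libraries below the Gpr125-negative pair, although TEB-distal replicate 2 exceeded Gpr125-negative replicate 2 only narrowly and, with CPM from the library total, lay below Gpr125-negative replicate 1 (4.71 against 4.85). Between the Gpr125+ populations the log2 fold change was 3.18 (SE 1.56, unadjusted p = 0.0774, edgeR FDR 1), and it ran from 2.31 to 4.99 as libraries were left out. Isg15 itself, the ubiquitin-like modifier, had 4.84 and 4.30 CPM in Gpr125-negative, 1.25 and 7.01 in TEB-distal and 2.31 and 2.02 in nipple-proximal libraries. The nipple-proximal pair lay below the Gpr125-negative pair, and the TEB-distal pair spanned all the others.

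Several antiviral effectors were high in only 1 TEB-distal library. TEB-distal replicates 1 and 2 also differed in the basal marker sum, at 4017 and 23031 CPM, while their luminal marker sums were 2966 and 2729 CPM. The part of cell content in the levels below was not tested. Rsad2 (viperin), which makes a chain-terminating nucleotide, was at 18.1 CPM in TEB-distal replicate 1 and between 1.05 and 5.16 CPM in the other 5. Oasl2 was at 11.4 CPM in that library and between 0.374 and 2.67 CPM elsewhere, and the GTPase Mx1 at 2.11 CPM against 0.306 to 0.884 CPM. In each of the 3 genes TEB-distal replicate 2 was at or near the bottom, so that the TEB-distal group overlapped both others. The opposite pattern held for Irf7, the transcription factor that amplifies type I interferon production, with 30.7 CPM in TEB-distal replicate 2, 1.68 in replicate 1 and 8.43 to 10.3 CPM in the other 4. Isg20 shared that order, with 86.0 and 21.8 CPM in TEB-distal replicates 2 and 1, 40.7 and 54.2 in nipple-proximal and 20.6 and 21.98 in Gpr125-negative libraries. For Isg20 the nipple-proximal pair did not overlap the Gpr125-negative pair.

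Mx2 and Oas3 were the type I targets that were higher in all 4 Gpr125+ libraries than in both Gpr125-negative libraries. Mx2, a GTPase of the antiviral Mx family, was at 6.84 and 4.71 CPM in Gpr125-negative, 20.1 and 15.9 in TEB-distal and 11.3 and 12.7 in nipple-proximal libraries. Its 3 groups did not overlap, with the TEB-distal pair on top. Oas3 was low throughout, at 0.732 and 0.542 CPM in Gpr125-negative, 0.819 and 0.919 in TEB-distal and 1.23 and 0.894 in nipple-proximal libraries. With CPM from the library total its groups overlapped, at 0.912 in Gpr125-negative replicate 1 against 0.859 in TEB-distal replicate 1 and 0.754 in nipple-proximal replicate 2, whereas those of Mx2 stayed apart. Oas1a, of the same 2-5A synthetase family, had 0.624 and 0.135 CPM in Gpr125-negative, 1.56 and 4.53 in TEB-distal and 1.52 and 0.612 in nipple-proximal libraries, and its TEB-distal pair lay above the other 4. Reads of Oas1a may be split with its close copy Oas1g.

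The remaining type I targets overlapped between groups. Stat2, a member of the ISRE-binding complex, was at 19.5 CPM in Gpr125-negative replicate 1 and 0.169 CPM in replicate 2, a gap that is wider than any between groups for this gene, with 17.7 and 2.04 in TEB-distal and 5.70 and 6.54 in nipple-proximal libraries. Irf9, the DNA-binding member of that complex, varied little, from 8.94 to 17.9 CPM. Bst2 and Ifi35 were both highest in Gpr125-negative replicate 1, at 27.7 and 53.5 CPM, and lowest in Gpr125-negative replicate 2, at 4.13 and 8.16 CPM. The cytoplasmic RNA sensors Ifih1 (MDA5), between 0.102 and 2.06 CPM, and Ddx58 (RIG-I), which varied by 2.88-fold from 3.81 CPM upward, were highest in nipple-proximal replicate 1. For Ifih1, the Gpr125-negative pair alone spanned 0.947 and 0.102 CPM.

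**Figure D3:**
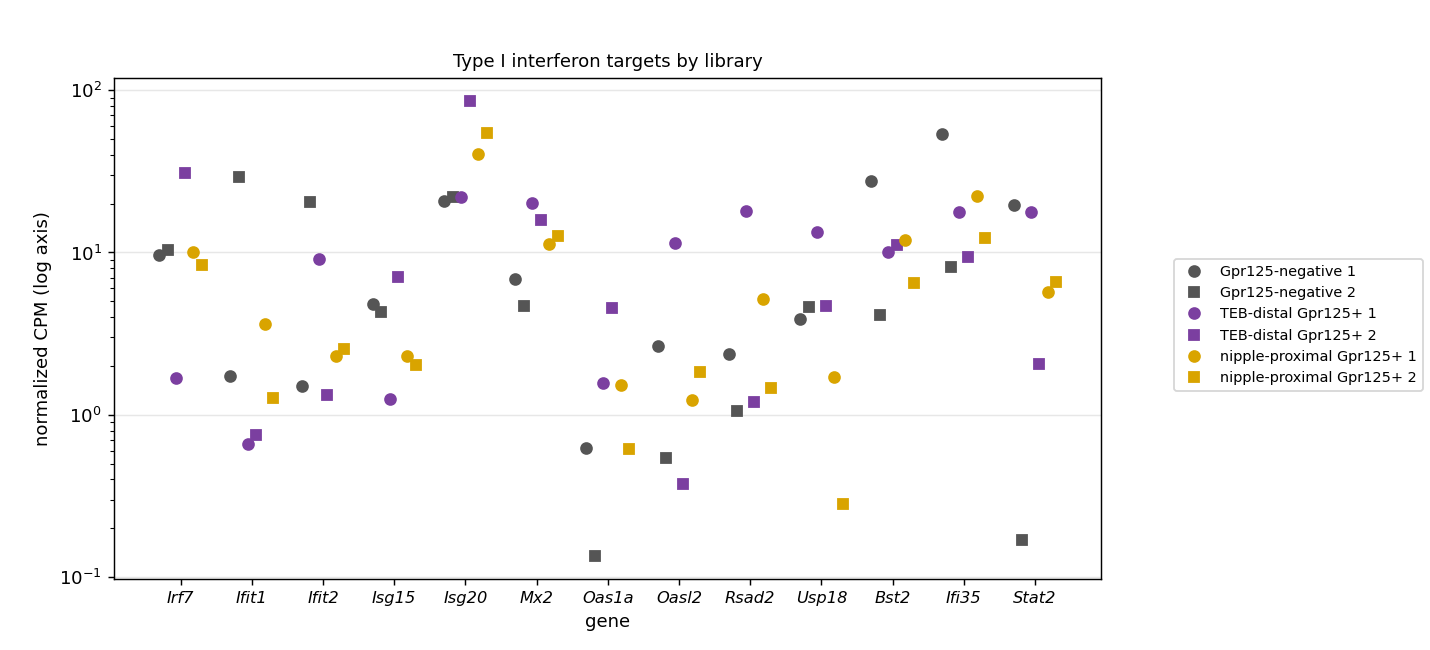
Normalized CPM (vertical log axis) of 13 type I interferon targets in each of the 6 libraries (grey, Gpr125-negative; purple, TEB-distal; gold, nipple-proximal; circles, replicate 1; squares, replicate 2). Points are single libraries and no mean is drawn. For Ifit1, Oasl2, Rsad2 and Stat2 the circle and square of 1 colour are far apart, whereas for Mx2 the 3 colours do not overlap.

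The interferon-gamma targets were the list with the lowest median between the Gpr125+ populations. In TEB-distal relative to nipple-proximal cells 6 of 8 had a negative log2 fold change and 5 did not overlap in that direction (against 18.3% of all genes), and their median was -3.52, beside 0.059 for all genes. It lay between -4.20 and -1.43 as each library was left out in turn, the smaller size being without nipple-proximal replicate 1. That library also had the highest endothelial marker sum of the 4 Gpr125+ libraries, 285 CPM against 21.4 to 33.1 in the other 3, and the part of this in the result was not tested. Against Gpr125-negative cells the median was -0.46 for TEB-distal cells and 0.51 for nipple-proximal cells. The first turned to 0.84 without Gpr125-negative replicate 1, and the second to -0.30 without nipple-proximal replicate 1 and to -0.063 when only genes with at least 1 CPM in 2 libraries were kept, and it was 2.36 without Gpr125-negative replicate 1. Summed over the list, the level was 99.5 and 61.3 CPM in Gpr125-negative, 64.2 and 47.6 in TEB-distal and 124 and 41.0 in nipple-proximal libraries, so the sum overlapped between the groups.

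Irf8 (ENSMUSG00000041515, chromosome 8, 120736358 to 120756694, GRCm38), an interferon regulatory factor known mainly from myeloid and B cells, varied most of all 39 genes, by 416-fold between its highest and lowest library. Its counts were 2263 and 93 in Gpr125-negative, 3 and 6 in TEB-distal and 101 and 32 in nipple-proximal libraries, which is 48.7 and 3.15, 0.117 and 0.204, and 4.96 and 1.51 CPM. Both TEB-distal libraries were near the limit of 3 counts and below the other 4, and the nipple-proximal and Gpr125-negative pairs overlapped. The log2 fold change in TEB-distal cells was -7.29 (SE 1.84, unadjusted p = 0.00453, edgeR FDR 0.803) against Gpr125-negative cells and -4.29 (SE 1.62, unadjusted p = 0.0303, edgeR FDR 1) against nipple-proximal cells. DESeq2 on the 4 libraries called the first at an FDR of 0.000124 and gave the second an FDR of 0.198. As libraries were left out these values ran from -8.20 to -4.36 and from -4.91 to -3.19. In nipple-proximal against Gpr125-negative cells the log2 fold change was -3.00 (SE 1.49, unadjusted p = 0.0806, edgeR FDR 1), and it shrank to -0.094 without Gpr125-negative replicate 1. In bulk libraries, fewer cells of a type and less RNA per cell cannot be told apart. The endothelial marker sum, like Irf8, was highest in Gpr125-negative replicate 1 and lowest in the TEB-distal pair, and its part in the result was not tested. The macrophage and dendritic cell markers summed to 78.1 and 72.9 CPM in Gpr125-negative, 131 and 303 in TEB-distal and 194 and 107 in nipple-proximal libraries, most of it Cd68, while Siglech was at 0 in all 6 libraries and Xcr1 in 5. Without Cd68, a choice made after these values were seen, the sums were 7.01 and 29.6, 12.4 and 12.9, and 16.1 and 8.14 CPM. Csf1r, the macrophage growth factor receptor, stood at 0.925 and 17.1, 0.897 and 0.885, and 5.01 and 1.55 CPM. Its TEB-distal pair lay below the other 4, but only narrowly below Gpr125-negative replicate 1, the library where Irf8 was highest. No other marker of that list had its TEB-distal pair below the other 4, and Itgax had it above them, at 1.21 and 2.52 CPM. The part of these cells in the result was not tested.

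The GTPases of the interferon-gamma response, which are recruited to membranes around intracellular microbes, fell into different patterns. Gbp7 (chromosome 3, 142530342 to 142550149) had 1.96 and 8.60 CPM in Gpr125-negative, 0.195 and 0.477 in TEB-distal and 7.96 and 2.92 in nipple-proximal libraries. Its TEB-distal pair, with 5 and 14 counts, lay below the other 4. In TEB-distal cells the log2 fold change was -3.95 (SE 1.72, unadjusted p = 0.0511, edgeR FDR 0.825) against Gpr125-negative and -3.997 (SE 1.73, unadjusted p = 0.0496, edgeR FDR 1) against nipple-proximal cells, and DESeq2 on the 4 libraries called the second at an FDR of 0.0998. Of its exonic bases, 11.3% are shared with a predicted gene on the same strand, Gm43802.

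Igtp (Irgm3), an immunity-related GTPase of membranes, was at 11.6 and 0.169 CPM in Gpr125-negative, 1.09 and 0.443 in TEB-distal and 17.5 and 5.84 in nipple-proximal libraries. Both TEB-distal libraries lay below both nipple-proximal libraries, and the Gpr125-negative pair spanned nearly the whole range. DESeq2 on the 4 libraries called this difference at an FDR of 0.0210, whereas in edgeR Igtp was not among the 5 genes with the smallest p. Igtp shares 8.01% of its exonic bases with Irgm2. Irgm1, which takes part in autophagy of microbes, was more even, from 8.63 to 41.8 CPM, with both extremes in the Gpr125-negative group.

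Iigp1 (ENSMUSG00000054072, chromosome 18, 60376027 to 60392634), a GTPase that disrupts parasite vacuoles, and Gbp3 were high in nipple-proximal replicate 1. Iigp1 had 1.14 and 0.339 CPM in Gpr125-negative, 0.624 and 0.374 in TEB-distal and 24.2 and 1.41 in nipple-proximal libraries. Nipple-proximal replicate 1 stood far above the other 5, and nipple-proximal replicate 2 was next, although with CPM from the library total it came after Gpr125-negative replicate 1 (1.19 against 1.42). In nipple-proximal against Gpr125-negative cells its log2 fold change was 4.10 (SE 1.83, unadjusted p = 0.0572, edgeR FDR 1), and it shrank to 0.93 without nipple-proximal replicate 1. Between TEB-distal and nipple-proximal cells it was -4.67 (SE 1.89, unadjusted p = 0.0399, edgeR FDR 1), called by DESeq2 on the 4 libraries at an FDR of 0.0178, and -1.49 without the same library.

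Gbp3 (chromosome 3, 142560026 to 142573209) was at 0.258 and 0.102 CPM in Gpr125-negative, 0.273 and 0.272 in TEB-distal and 4.13 and 0.706 in nipple-proximal libraries. The nipple-proximal pair lay above all others, and the TEB-distal pair, with 7 and 8 counts, was hardly above the Gpr125-negative pair, with 12 and 3, and not above it with CPM from the library total. The log2 fold change in nipple-proximal cells was 3.70 (SE 1.95, unadjusted p = 0.0939, edgeR FDR 1) and 1.94 at its smallest as libraries were left out. Like Gbp3, Gbp2 (chromosome 3, 142620602 to 142638008) was higher in all 4 Gpr125+ libraries than in both Gpr125-negative libraries, but with a wider gap for the TEB-distal pair. It had 3.08 and 0.847 CPM in Gpr125-negative, 14.8 and 12.4 in TEB-distal and 30.5 and 4.43 in nipple-proximal libraries, and all 4 Gpr125+ libraries lay above both Gpr125-negative libraries, which with CPM from the library total held for the TEB-distal pair alone (nipple-proximal replicate 2 at 3.73, Gpr125-negative replicate 1 at 3.83). The log2 fold change was 2.79 (SE 1.29, unadjusted p = 0.0649, edgeR FDR 0.845) for the TEB-distal population and 3.15 (SE 1.31, unadjusted p = 0.0448, edgeR FDR 1) for the nipple-proximal population, the latter between 1.17 and 4.23 as libraries were left out. Reads from the related Gbp genes may be split between them in counting. Irf1, the transcription factor at the head of the interferon-gamma response, was at 24.1 and 6.33 CPM in Gpr125-negative, 20.9 and 19.8 in TEB-distal and 12.3 and 7.25 in nipple-proximal libraries. The TEB-distal pair lay above the nipple-proximal pair for Irf1, the reverse of Irf8.

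**Figure D4:**
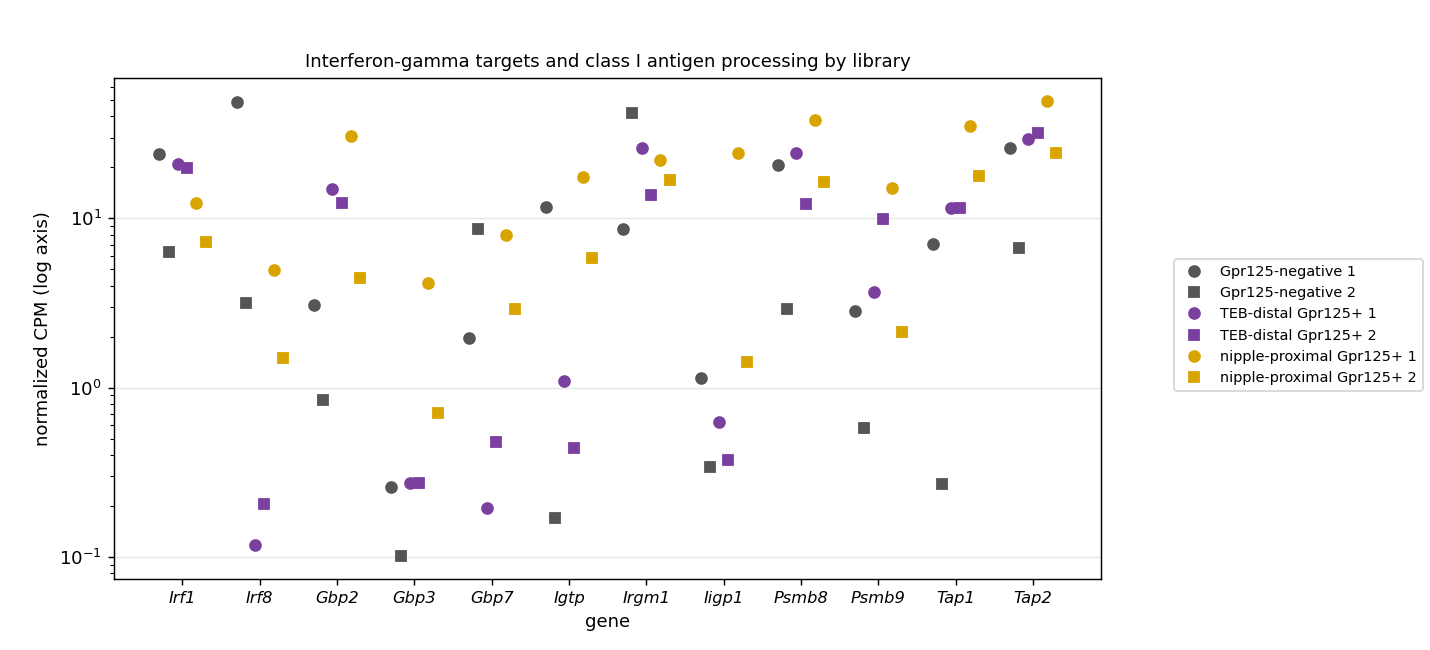
Normalized CPM (vertical log axis) of the 8 interferon-gamma targets and 4 class I processing genes in each of the 6 libraries (grey, Gpr125-negative; purple, TEB-distal; gold, nipple-proximal; circles, replicate 1; squares, replicate 2). The purple points lie below the gold points for Irf8, Gbp3, Gbp7, Igtp, Iigp1 and Tap1. The grey square of Gpr125-negative replicate 2 is lowest of all for Irf1, Gbp2, Gbp3, Igtp, Iigp1, Psmb8, Psmb9, Tap1 and Tap2.

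Of the class I processing genes Tap1, Tap2, Psmb8 and Psmb9 were lowest in Gpr125-negative replicate 2, and most groups overlapped. Their median log2 fold change against Gpr125-negative cells was 0.76 in TEB-distal cells and 1.19 in nipple-proximal cells, and it reached 2.29 and 2.71 without Gpr125-negative replicate 1. Between the Gpr125+ populations all 6 had a negative log2 fold change, with a median of -0.46 and values from -1.19 to -0.063, and in 5 of the 6 the groups overlapped. Tap1 (ENSMUSG00000037321, chromosome 17, 34187553 to 34197225), a subunit of the transporter that carries peptides into the endoplasmic reticulum, had 7.04 and 0.271 CPM in Gpr125-negative, 11.5 and 11.5 in TEB-distal and 34.97 and 17.7 in nipple-proximal libraries. The 3 groups were in order without overlap, with the nipple-proximal pair on top. The log2 fold change in nipple-proximal against Gpr125-negative cells was 2.85 (SE 1.41, unadjusted p = 0.0805, edgeR FDR 1), and it ranged from 1.90 to 6.44 as libraries were left out, the larger without Gpr125-negative replicate 1, where edgeR called it at an FDR of 0.0948.

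The partner subunit Tap2 was at 26.2 and 6.71 CPM in Gpr125-negative, 29.2 and 32.1 in TEB-distal and 49.5 and 24.3 in nipple-proximal libraries. The TEB-distal pair lay above the Gpr125-negative pair, though not with CPM from the library total, and the nipple-proximal pair overlapped both. Psmb8, a catalytic subunit of the immunoproteasome that cuts the peptides, had 20.6 and 2.91, 24.3 and 12.1, and 38.1 and 16.3 CPM in the same order of groups, all overlapping. Psmb9, another such subunit, had 2.82 and 0.576, 3.67 and 9.87, and 15.0 and 2.12 CPM, and only its TEB-distal pair was clear of the Gpr125-negative pair. Psmb9 and Tap1 overlap at their starts on opposite strands (5.79% of the exonic bases of Psmb9), and Tap2 (18.5%) and Psmb8 (14.7%) overlap predicted antisense genes. The counts were made without strand, so reads from these stretches cannot be assigned to 1 gene.

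B2m was the most abundant of the genes, at 342 and 1103 CPM in Gpr125-negative, 632 and 381 in TEB-distal and 474 and 584 in nipple-proximal libraries. Its extremes were the Gpr125-negative replicates, and it was highest in the library where Tap1, Psmb8 and Psmb9 were lowest. Nlrc5, the transactivator of class I genes, was at 1.96 and 0.915, 0.663 and 2.21, and 1.96 and 4.33 CPM, with the nipple-proximal pair above the Gpr125-negative pair by less than the rounding of these values and overlapping it with CPM from the library total. Among 16 further class I genes, all tested, 15 had a negative log2 fold change in TEB-distal against Gpr125-negative cells and 14 against nipple-proximal cells, with medians of -0.88 and -0.86. Of all 17268 genes tested, 8451 and 8177 were negative in these comparisons. Against Gpr125-negative cells, 5 of the 6 class I processing genes went the other way by sign alone. Among the 5 was Nlrc5 at a log2 fold change of 0.0011, and the smallest unadjusted p of the 6 in edgeR was 0.238. Against Gpr125-negative and against nipple-proximal cells, DESeq2 on the 4 libraries called 1 further class I gene lower in TEB-distal cells. It called 2.61% and 1.85% of all genes in these comparisons. Of the 16 further genes, 0 were called by edgeR. The class Ib gene H2-Q6 had the smallest p of them, with 43.1 and 39.9 CPM in Gpr125-negative, 5.85 and 3.40 in TEB-distal and 40.5 and 19.3 in nipple-proximal libraries. The gene's log2 fold change in TEB-distal cells was -3.16 (SE 0.818, unadjusted p = 0.00481, edgeR FDR 0.803) and -2.69 (SE 0.802, unadjusted p = 0.0101, edgeR FDR 1) against these groups. H2-Q7, a near-identical neighbour that may share its reads, stood at 18.1 and 35.9, 5.97 and 11.7, and 41.6 and 27.7 CPM, and its log2 fold change between the Gpr125+ populations was -1.97 (unadjusted p = 0.0416, edgeR FDR 1).

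The MHC class II genes did not move together. Their median log2 fold change was -1.61 in TEB-distal cells and 0.25 in nipple-proximal cells against Gpr125-negative cells, and -1.05 between the Gpr125+ populations. The first turned to 1.24 without Gpr125-negative replicate 2, and the second to -0.31 without Gpr125-negative replicate 1. Ciita (ENSMUSG00000022504, chromosome 16, 10480059 to 10528418), the master activator of class II genes, was higher in the TEB-distal than in the Gpr125-negative libraries. Its counts were 9 and 2 in Gpr125-negative, 47 and 266 in TEB-distal and 12 and 43 in nipple-proximal libraries, or 0.194 and 0.0677, 1.83 and 9.06, and 0.589 and 2.02 CPM. All 4 Gpr125+ libraries lay above both Gpr125-negative libraries, and the Gpr125+ populations overlapped. In TEB-distal cells the log2 fold change was 5.32 (SE 2.02, unadjusted p = 0.0300, edgeR FDR 0.803), between 3.75 and 6.14 as libraries were left out.

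Of the structural class II genes, H2-Ab1, H2-Aa and Cd74 were highest in Gpr125-negative replicate 2 or nipple-proximal replicate 1, and H2-Eb1 in TEB-distal replicate 2. H2-Ab1, which encodes a beta chain, had 6.76 and 34.9 CPM in Gpr125-negative, 3.55 and 10.1 in TEB-distal and 19.8 and 9.70 in nipple-proximal libraries, and H2-Aa, which encodes its alpha partner, had 0.968 and 14.0, 2.42 and 2.18, and 6.43 and 3.06 CPM. For H2-Aa the TEB-distal pair lay below the nipple-proximal pair, and other groups of both genes overlapped. Cd74 (ENSMUSG00000024610, chromosome 18, 60803848 to 60812652), the chaperone that fills the class II groove before peptide loading, was at 11.3 and 41.1, 6.43 and 10.01, and 45.8 and 31.2 CPM. Both TEB-distal libraries were below the other 4. Between TEB-distal and nipple-proximal cells the log2 fold change of Cd74 was -2.23 (SE 0.885, unadjusted p = 0.0374, edgeR FDR 1), and it stayed between -2.58 and -1.85 as libraries were left out. H2-Eb1 had 0.602 and 1.22, 2.11 and 2.96, and 1.08 and 1.08 CPM, and its TEB-distal pair lay above the other 4. The reference build is of another strain than the mice, and class II genes and Mx1 differ between strains, and the effect of this on their counts was not tested.

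The 10 leukocyte markers were above 3 counts in every library and summed to 15.0 and 44.2 CPM in Gpr125-negative, 23.6 and 17.7 in TEB-distal and 41.6 and 25.4 in nipple-proximal libraries, beside 19.8 and 91.2, 16.3 and 34.3, and 73.7 and 47.0 CPM for the class II list. Gpr125-negative replicate 2 and nipple-proximal replicate 1 were the highest for both sums. The place of nipple-proximal replicate 1 in the leukocyte sum rested on Lcp1, at 28.9 CPM of its 41.6. Without Lcp1, a choice made after these values were seen, the sums were 8.99 and 24.4, 20.4 and 11.98, and 12.8 and 18.4 CPM, with Gpr125-negative replicate 2 still the highest and nipple-proximal replicate 1 the fourth. The part of leukocytes in the class II levels was not tested. Within the leukocyte list, Ptprc, the gene of the CD45 used in the sort, was between 1.98 and 9.24 CPM and was highest in TEB-distal replicate 1. The B cell markers summed to between 0 and 7.29 CPM, and the T and NK cell markers to between 0.442 and 5.73 CPM, with Cd3e at 0 in both nipple-proximal libraries. The B cell sum was highest in TEB-distal replicate 2, as was Ciita.

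**Figure D5:**
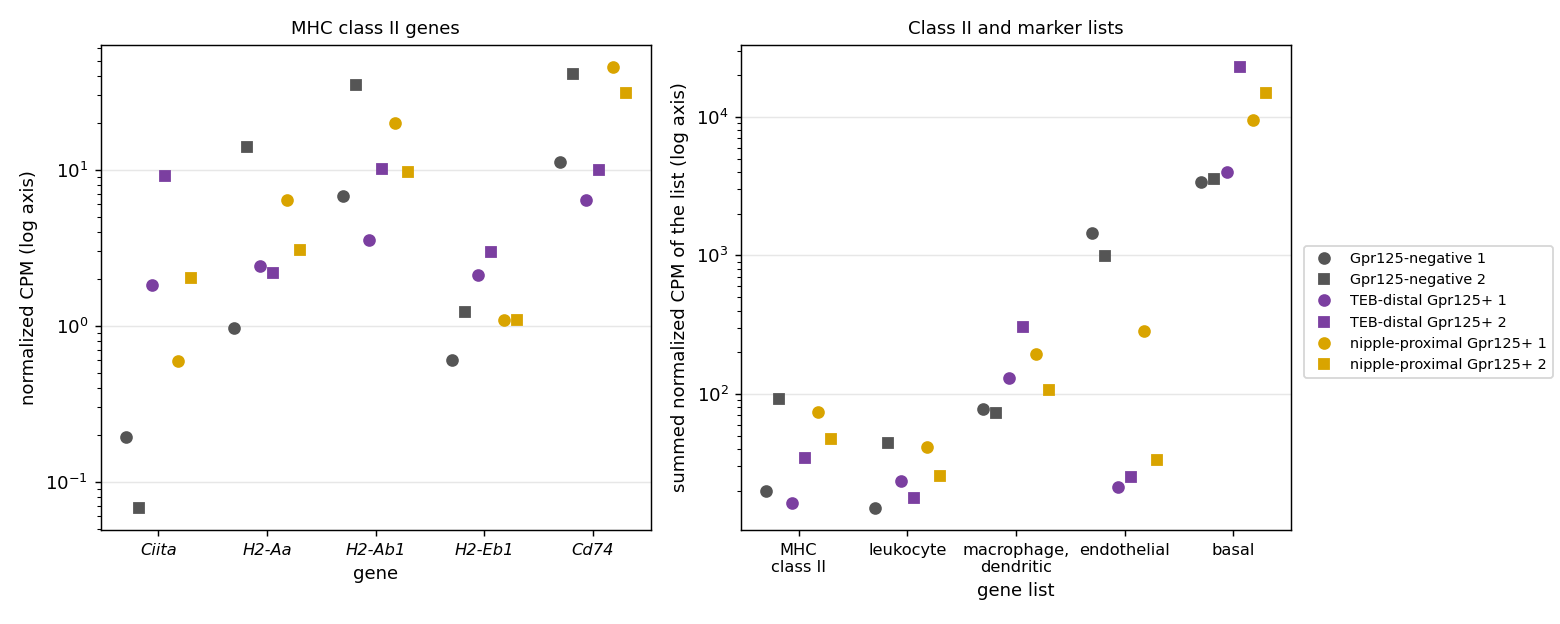
Normalized CPM (vertical log axis) of the 5 class II genes (left) and summed CPM of the class II list and 4 marker lists (right) in each of the 6 libraries (grey, Gpr125-negative; purple, TEB-distal; gold, nipple-proximal; circles, replicate 1; squares, replicate 2). Gpr125-negative replicate 2 and nipple-proximal replicate 1 are highest in both the class II and the leukocyte sums, the latter through Lcp1 in nipple-proximal replicate 1, and the endothelial sum separates the grey points, at 1450 and 989 CPM, from the purple points, at 21.4 and 25.02 CPM.

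Further targets of both interferons were read from lists of the same pathways. Of 34 further type I targets 31 were tested, and their median log2 fold change was 0.96 in TEB-distal cells and 0.16 in nipple-proximal cells against Gpr125-negative cells and 0.30 between the Gpr125+ populations, with 0 called by edgeR and 0 with an unadjusted p under 0.05 in each comparison. Of these, Oas1b and Dtx3l had the smallest p in nipple-proximal against Gpr125-negative cells. Dtx3l, a ubiquitin ligase that works with Parp9, had 2.13 and 0.305 CPM in Gpr125-negative, 8.46 and 1.53 in TEB-distal and 6.19 and 10.5 in nipple-proximal libraries, and its nipple-proximal pair lay above the Gpr125-negative pair (log2 fold change 2.77, unadjusted p = 0.130, edgeR FDR 1). Oas1b had 0 and 1 counts in Gpr125-negative, 0 and 54 in TEB-distal and 15 and 10 in nipple-proximal libraries.

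Of 17 further interferon-gamma targets only 8 passed the filter on low values. In TEB-distal against nipple-proximal cells 7 of the 8 had a negative log2 fold change, against 8177 of all 17268 genes tested. DESeq2 on the 4 libraries called 3 genes of this list lower there and 1 lower in TEB-distal against Gpr125-negative cells. It called 1.85% and 2.61% of all genes in these comparisons. The filter kept genes through the libraries where they were high, so these counts describe the list and are no support for a direction. Gbp9 was at 0.925 and 26.5 CPM in Gpr125-negative, 0.312 and 0.306 in TEB-distal and 18.3 and 0.612 in nipple-proximal libraries, with the TEB-distal pair lowest (log2 fold change -5.45 against Gpr125-negative cells, unadjusted p = 0.0402, edgeR FDR 0.815). Gbp4 was at 15.3 CPM in nipple-proximal replicate 1 and between 0.169 and 0.663 CPM in the other 5 (log2 fold change 5.39 in nipple-proximal against Gpr125-negative cells, unadjusted p = 0.0481, edgeR FDR 1). The chemokine gene Cxcl9 had 0 counts in both TEB-distal libraries, 134 and 1 in nipple-proximal and 3 and 85 in Gpr125-negative libraries. Nipple-proximal replicate 1, where Iigp1 and Gbp3 peaked, was also the highest library for Gbp4 and Cxcl9, the second highest for Gbp9, and the highest of the Gpr125+ libraries for the endothelial marker sum given above. Of 13 further class II genes 9 were tested, and the lysosomal protease Lgmn had the smallest p, with 65.6 and 55.8 CPM in Gpr125-negative, 11.7 and 13.0 in TEB-distal and 39.6 and 15.7 in nipple-proximal libraries. The gene's log2 fold change in TEB-distal against Gpr125-negative cells was -2.29 (unadjusted p = 0.0160, edgeR FDR 0.803).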

How the data were processed

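RNA from 6 libraries of sorted mammary cells was analysed. Per the labels and the methods, reads were mapped with STAR (2.7.3 in the labels, another version in the methods) to mm10. HTSeq then gave counts per gene, ignoring strand, and the authors deposited these raw counts. The annotation release is not given in the sources used here. The libraries carry no molecular identifiers, so the floor of 3 counts covers counting error only.

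Groups were taken from the sample titles. In R 4.3.3, edgeR 4.0.16 was fitted to the 6 libraries together (TMM factors, filterByExpr, a robust glmQLFit and glmQLFTest), and 17268 of 55291 symbols were tested. Calls required a 2-fold change and an FDR under 0.1 by the Benjamini-Hochberg method over every gene tested. Standard errors were taken from the F statistic. Log2 CPM in the plot of all members used a prior count of 2. DESeq2 1.42.0 on the same genes, other filters and scalings, a replicate block, and leaving out each library were alternatives. The scripts were tested on simulated counts. The members and lists were chosen with earlier results of these data known, so no p-value over a list is given. Fold changes are given for the 5 members of each comparison with the smallest p, and values of other pathway genes for the 3 with the smallest p. The ligands, receptors, Tlr3, Csf1r and Itgax, and the DESeq2 values of Igtp, were added after their values were seen. Some listed genes enter only the counts and sums and are not reported here singly. No 2 libraries held the same counts: any pair had equal counts at no more than 4.85% of the symbols tested.

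Coordinates are those of GENCODE M21 on GRCm38. Per-length levels divide CPM by the exonic length of that annotation. Promoter sequences are from RefSeq (GRCm38.p6). Replicate numbers are shared between the groups, but the deviations of same-numbered libraries from their group means correlated at -0.035, 0.19 and -0.0049 across genes, so the libraries were not treated as paired.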

Additional observations from a re-analysis of the deposited data

Results flagged for a closer look

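Usp18, the protease that removes Isg15 from proteins, lay on opposite sides of the Gpr125-negative libraries in the Gpr125+ populations: both TEB-distal libraries were above both of them and both nipple-proximal libraries below. With CPM from the library total the first part was lost, since TEB-distal replicate 2 (4.71) lay below Gpr125-negative replicate 1 (4.85). The direct comparison of the Gpr125+ populations gave a log2 fold change of 3.18 (SE 1.56, unadjusted p = 0.0774, edgeR FDR 1), which did not pass the test. No other of the 38 genes tested showed this pattern.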

How the results depend on the processing

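Across the alternatives run, no member given with a fold change in the report changed direction. The number of members called in TEB-distal against Gpr125-negative cells went from 0 to 4 with DESeq2 on all 6 libraries (Ciita, Gbp7, Ifit1 and Irf8), 2 with DESeq2 on the 4 compared libraries (Ifit1 and Irf8), and 1 with edgeR when any gene with 1 count or more was kept (Irf8, FDR 0.0163), and was between 0 and 2 as libraries were left out (Ifit1 and Tap1, without Gpr125-negative replicate 1). In nipple-proximal against Gpr125-negative cells it was between 0 and 1 (Tap1, without the same library), and in TEB-distal against nipple-proximal cells it was 3 with DESeq2 on the 4 compared libraries (Gbp7, Igtp and Iigp1). Over all genes, calls in the 3 comparisons numbered 0 in edgeR but 635, 208 and 101 with DESeq2 on all 6 libraries, 380, 199 and 276 with DESeq2 on 4, and 137, 58 and 39 with edgeR on every gene with counts, and reached 579 and 185 in the first and second comparison without Gpr125-negative replicate 1. With CPM from the library total, 7 and 5 members lay above both Gpr125-negative libraries in TEB-distal and nipple-proximal cells. Under that scaling 7 members lost a separation of 2 groups (Oas3, Usp18, Gbp2, Gbp3, Iigp1, Tap2 and Nlrc5) and 1 gained one (Ciita, between the Gpr125+ populations).

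As libraries were left out in turn, the medians in TEB-distal against Gpr125-negative cells ran from -0.47 to 0.84 for type I targets, from -0.92 to 0.84 for interferon-gamma targets, from 0.40 to 2.29 for class I genes and from -2.43 to 1.24 for class II genes. In nipple-proximal against Gpr125-negative cells they ran from -0.44 to 0.83, from -0.30 to 2.36 and from 0.51 to 2.71 for the first 3 lists, and in TEB-distal against nipple-proximal cells from -0.43 to 0.78 for type I targets and from -4.20 to -1.43 for interferon-gamma targets. DESeq2's size factors moved the median of all genes to -0.17 in the second comparison and 0.19 in the third. With the replicate block 0 members were called in each comparison, and no call changed. The block put the median of the type I targets in nipple-proximal against Gpr125-negative cells at 0.21, against -0.069 without it. The cause of these changes was not tested, except that leaving out a library leaves its group with 1 sample, which is assumed to vary like the others. The biological coefficient of variation between libraries was 0.967.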
